A study of Homo sapiens with 3 samples.

Results

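The tallest H3.3 regions of the MDA-MB-231 LM2 genome were chosen by their measured H3.3 height, as regions with a mean H3.3 pileup height of at least 20 and a length below 8000 bases on chromosomes 1 to 22 and X. They numbered 405 of 67965 regions. MDA-MB-231 LM2 is a lung-tropic, highly metastatic derivative of a human triple-negative breast cancer line, and its labels speak of clones. The series holds 1 chromatin immunoprecipitation (ChIP) library for H3.1 and H3.2 together, made with 4 µg of antibody, 1 for H3.3, made with 6 µg, and 1 input DNA library, and each ChIP took 30 µg of chromatin. Both ChIPs came from the same line, with no treatment named. The headers of both columns also hold the letters shGFP, the usual short form of a GFP hairpin control, and the labels are silent on it. The input was not analysed here. Each antibody had a lone library, so nothing was tested between them, and the 95% intervals below measure counting error in tags or scatter among regions, not variation between cultures.

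H3.3 is the replacement form of histone H3. It is placed on DNA throughout the cell cycle, by the HIRA complex at active promoters and enhancers and by DAXX and ATRX at telomeres and centromere-flanking repeats, whereas H3.1 and H3.2 are placed mainly behind the replication fork by CAF-1. CpG islands are stretches rich in unmethylated CpG dinucleotides that mark most housekeeping promoters, where nucleosomes turn over quickly.

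The H3.3 height chose these regions, so their H3.3 values are a description. The median H3.3 height was 21.9, the lowest 20 and the highest 179, and 5% of the regions exceeded 29.5. Just inside the limit lay regions at PAPSS1 (20), which makes the cell's sulfate donor, near RHEB and CRYGN (20.012), of which RHEB is a GTPase upstream of mTOR, at OAZ1 (20.025), at SBNO2 (20.026) and at MROH6, NAPRT and EEF1D (20.032). Just outside lay regions at ANKRD50, CAND1, TNRC18 and METRN and a region away from genes on chromosome 3, all between 19.968 and 19.982. H3.1/H3.2 heights were 3.96 to 12.5 in the former 5 and 3.40 to 6.67 in the latter. A further 135 regions of at least 8000 bases reached the same height and are not members. The tall regions had a median length of 2399 bases, with 5% below 599 and 5% above 6999. They held a median of 251 estimated H3.3 tags and 63 H3.1/H3.2 tags, where a tag is a read as the table counts it. The 39085 other regions below 8000 bases that were called in H3.3 had medians of 81 and 36 tags and serve as the comparison below.

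Sequences from the tall promoters are shown first, because most tall regions held a CpG island and carried a promoter mark. RefSeq (GRCh38.p14) gave the 250 bases upstream of a start for 191 of the genes nearest to a tall promoter region, and in 89 regions at least 125 of these bases lay within the region. The 5 of these with the highest H3.3 are printed, and SLCO4A1-AS1 is added as the next without a CpG island. Each reads 5′ to 3′ on the gene's strand, and capitals mark matches to the motifs named after the sequences.
PGK1, chrX:78103998-78104247, plus strand: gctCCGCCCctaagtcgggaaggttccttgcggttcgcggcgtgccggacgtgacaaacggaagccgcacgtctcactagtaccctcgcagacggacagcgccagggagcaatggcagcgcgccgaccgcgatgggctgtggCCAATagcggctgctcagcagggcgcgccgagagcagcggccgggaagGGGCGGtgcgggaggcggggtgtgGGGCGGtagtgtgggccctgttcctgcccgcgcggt
RNPS1, chr16:2267887-2268136, minus strand: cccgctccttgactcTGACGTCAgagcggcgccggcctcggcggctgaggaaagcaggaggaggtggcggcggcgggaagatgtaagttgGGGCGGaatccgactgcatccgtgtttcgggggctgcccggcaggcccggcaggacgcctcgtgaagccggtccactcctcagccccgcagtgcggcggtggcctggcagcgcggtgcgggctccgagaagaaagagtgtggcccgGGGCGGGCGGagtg
RFX3, chr9:3526002-3526251, minus strand: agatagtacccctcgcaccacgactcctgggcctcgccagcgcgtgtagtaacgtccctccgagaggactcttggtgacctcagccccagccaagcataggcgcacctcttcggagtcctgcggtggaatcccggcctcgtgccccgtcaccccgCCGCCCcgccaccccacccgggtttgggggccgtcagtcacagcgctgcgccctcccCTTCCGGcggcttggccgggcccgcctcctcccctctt
LOC105372651, chr20:49594320-49594569, plus strand: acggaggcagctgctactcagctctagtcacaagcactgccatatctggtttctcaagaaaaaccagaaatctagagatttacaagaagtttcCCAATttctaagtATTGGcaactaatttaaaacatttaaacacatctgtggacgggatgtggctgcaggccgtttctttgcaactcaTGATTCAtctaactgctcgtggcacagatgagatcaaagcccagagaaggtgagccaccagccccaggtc
USP47, chr11:11841722-11841971, plus strand: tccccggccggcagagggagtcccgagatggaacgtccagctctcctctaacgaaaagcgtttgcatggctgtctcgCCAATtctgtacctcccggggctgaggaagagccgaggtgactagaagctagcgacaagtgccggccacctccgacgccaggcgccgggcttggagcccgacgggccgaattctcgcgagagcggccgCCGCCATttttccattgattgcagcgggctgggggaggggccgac
SLCO4A1-AS1, chr20:62666622-62666871, minus strand: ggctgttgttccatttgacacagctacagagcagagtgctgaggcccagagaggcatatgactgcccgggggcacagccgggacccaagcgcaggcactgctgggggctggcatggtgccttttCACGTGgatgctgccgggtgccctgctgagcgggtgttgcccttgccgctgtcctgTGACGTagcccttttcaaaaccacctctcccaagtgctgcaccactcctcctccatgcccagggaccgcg
The motifs searched on both strands were the GC box GGGCGG of SP and KLF factors, the CCAAT box, the ETS core CCGGAAG, the NRF1 core TGCGCA, the AP-1 site TGANTCA of JUN and FOS, the cyclic AMP response core TGACGT, the E-box CACGTG, the TATA box TATAAA and the YY1 core ATGGCGG. Overlapping matches were kept, as in the palindromic response element and the doubled GC box of RNPS1. The upstream sequence of PGK1 held 32 CpG dinucleotides and was 71.2% G and C, and that of RNPS1 held 29 and was 71.6%. RFX3 held 24 and USP47 held 25, whereas LOC105372651 held 4 and SLCO4A1-AS1 held 10.

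Over the 89 promoters the median was 24 CpG dinucleotides (95% interval 21 to 25) and 68% G and C (66 to 70.4). The same stretch held a median of 20 (19 to 20) and 64.4% (64 to 64.8) at 4378 promoters in the other H3.3-called regions, and 11 (10 to 11) and 58% at all 35114 RefSeq promoters. The intervals of tall and other H3.3-called promoters did not overlap in either measure. They did overlap in the CpG count over that expected from the C and G content. Its median was 0.817 (0.759 to 0.869) at tall and 0.794 (0.785 to 0.802) at other H3.3-called promoters. A GC box lay in 58 of 89 (65.2%, 54.3 to 75.0), close to the 63.6% (62.2 to 65.0) of other H3.3-called promoters and above the 42.6% of all promoters. A CCAAT box lay in 23.6% (15.2 to 33.8) against 32.9% and 32.0%, and an ETS core in 21.3% (13.4 to 31.3) against 16.0% and 8.52%. The NRF1 core was found in 14.6% (8.01 to 23.7) against 10.9% and 6.89%. For the AP-1 site the shares were 6.74%, 4.82% and 6.57%, for TGACGT 10.1%, 9.89% and 7.10%, for the E-box 7.87%, 9.09% and 6.35%, for TATAAA 2.25%, 4.91% and 10.7%, and for the YY1 core 2.25%, 4.00% and 2.88%. With the nearest gene of each region, none of the 9 intervals at tall promoters excluded the share at other H3.3-called promoters, while those of the GC box, the ETS core, the NRF1 core and TATAAA excluded the share of all promoters. The CCAAT box alone depended on the set. Over all 134 assigned genes it lay in 22.4% (15.6 to 30.4) against 33.3% (32.1 to 34.6). In regions with a CpG island it lay in 21.2% (13.1 to 31.4) against 33.03% (31.5 to 34.5). In both sets the intervals did not overlap, though barely so in the island set. Genes assigned to the same region can share upstream bases, so the intervals over assigned genes may be too narrow. With 9 motifs looked at in each set, nothing is read from this.

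The question of where the tall regions lay was answered by the annotation that the authors deposited with the table, which the choice of regions did not use. Of the 405 regions, 295 (72.8%, 95% exact binomial interval 68.2 to 77.1) carried the authors' promoter mark. The mark's window is not stated, but any overlap with 7500 bases before to 2500 after a gene's start gave the deposited promoter count in all but 2 of the 67965 regions. Another 74 (18.3%) lay in a gene body, 15 (3.70%) near a gene and 21 (5.19%) away from genes. Among the other H3.3-called regions 43.2% (42.7 to 43.6) lay at promoters and 41.7% in gene bodies. The promoter share was 29.7 percentage points (25.05 to 33.99) higher in the tall regions, beyond the counting error of both shares. A CpG island lay in 323 tall regions (79.8%, 75.5 to 83.6) against 30.9% (30.4 to 31.4) of the others, a difference of 48.8 points (44.6 to 52.7). At promoters the island share was 91.9% (88.1 to 94.7) against 56.4%, and in gene bodies 54.1% (42.1 to 65.7) against 12.1%, and these intervals did not overlap. Near genes 5 of 15 tall regions held one (33.3%, 11.8 to 61.6), against 11.3% (10.2 to 12.6), where the intervals did overlap. Of the tall regions away from genes 7 of 21 held an island (33.3%, 14.6 to 57.0), against 8.91% (7.96 to 9.93).

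Tall regions covered more annotation than others. At least 2 CpG islands lay in 15.6% (12.2 to 19.5) against 2.47%, and at least 2 promoters in 31.9% (27.3 to 36.6) against 13.6%. A gene start lay within the region in 34.8% (30.2 to 39.7) against 16.4%. At tall promoters the region's centre lay a median of 848 bases (664 to 1111) from the nearest start, against 1421 (1389 to 1456), and 54.2% (48.4 to 60.02) were centred within 1000 bases of it, against 39.5%. The nearest gene was protein-coding in 211 of 295 tall promoter regions (71.5%, 66.0 to 76.6) and in 70.01% of the others, and long noncoding in 11.5% (8.12 to 15.7) and 12.01%, so neither share differed beyond counting error.

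**Figure D1:**
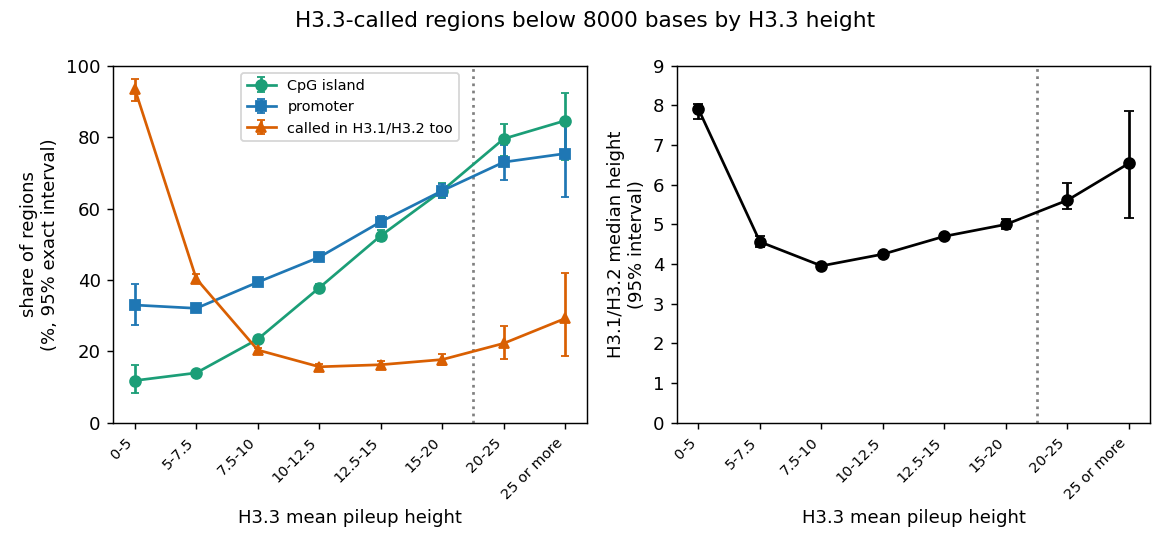
H3.3-called regions below 8000 bases in classes of H3.3 mean height (x axis), with the share holding a CpG island, lying at a promoter or also called in the H3.1/H3.2 ChIP (left, percent) and the median H3.1/H3.2 height (right); bars are 95% intervals and the dotted line is the limit of 20. The CpG island share rises from 11.8% in the lowest class to 84.6% in the highest, and the H3.1/H3.2 median is lowest, at 3.96, for heights of 7.5 to 10.

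The CpG share rose step by step with H3.3 height and not only at the limit. It was 13.98% for H3.3 heights of 5 to 7.5, 37.8% for 10 to 12.5, 65.0% (62.99 to 67.02) for 15 to 20, 79.5% (74.8 to 83.7) for 20 to 25 and 84.6% (73.5 to 92.4) above 25. The promoter share went from 32.1% through 46.4% and 65.0% to 72.997% and 75.4% in the same classes.

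The H3.1/H3.2 height was not used in the choice. The table merges calls of both ChIPs, however, so H3.1/H3.2 calls can bear on a region's bounds, length and mean heights. At the tall regions the median H3.1/H3.2 height was 5.75 (5.47 to 6.10), with 5% of the regions below 2.96 and a highest of 221. At the other H3.3-called regions the median was 4.29 (4.26 to 4.32). The difference was 1.46 (1.18 to 1.81) on the scale of heights, so the tallest H3.3 regions did not have the lowest H3.1/H3.2. It was 2.69 at a limit of 25 and 0.897 at a limit of 15. H3.1/H3.2 stayed below a height of 3 in 5.43% (3.44 to 8.11) of the tall regions and in 24.6% of the others, and reached 10 in 14.3% (11.1 to 18.1) and 5.52%. By class of H3.3 height the median was highest, at 7.91 (7.66 to 8.04), in the 279 regions below 5, which were called in both ChIPs in 93.5% of cases. It was 4.56 at 5 to 7.5, 3.96 (3.92 to 4) at 7.5 to 10, 5 (4.88 to 5.14) at 15 to 20, 5.61 (5.39 to 6.04) at 20 to 25 and 6.54 (5.16 to 7.86) above. The scaling between both libraries is not stated in the labels or headers, and tall and other regions were therefore compared within the H3.1/H3.2 library.

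The medians were also taken apart by CpG island and by length. Whether either accounts for the difference was not tested. Among regions with a CpG island the tall ones stood at 5.79 (5.47 to 6.20) and the others at 4.98 (4.92 to 5.05), and without an island at 5.49 (5.09 to 6.08) and 4.02 (4 to 4.06). In regions below 1000 bases the medians were 5.08 (4.53 to 5.75) in 89 tall regions and 3.53 (3.48 to 3.58) in the others, and at 1000 to 2000 bases 5.46 (5.05 to 6.07) and 3.98. At 4000 to 8000 bases 120 tall regions had 6.41 (5.88 to 7.54) and the others 6.63 (6.45 to 6.81), so the difference was not seen in long regions.

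**Figure D2:**
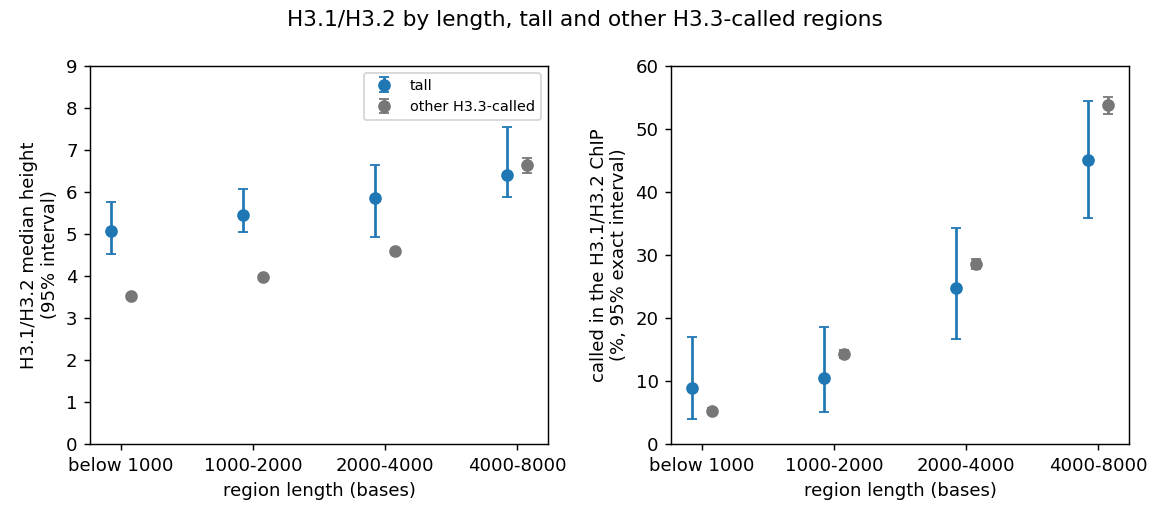
Median H3.1/H3.2 mean height (left) and percent of regions called in the H3.1/H3.2 ChIP (right) by region length in bases, for tall and other H3.3-called regions, with 95% intervals. The tall regions stand above the others in height below 4000 bases and not at 4000 to 8000, and the intervals of the called shares overlap in all 4 classes.

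Below 8000 bases, the share of tall regions called in the H3.1/H3.2 ChIP did not differ from that of the others beyond counting error. It was made in 97 of 405 (24.0%, 19.9 to 28.4), against a background of 22.5% in the other H3.3-called regions, a difference of 1.49 points (-2.61 to 5.97). Over all regions of the table the share was 54.3%. This depended on the choice of regions. With no limit on length 36.9% (32.8 to 41.1) of the tall regions were called, above the 26.1% (25.7 to 26.5) of the others. Without regions within 5 Mb of a chromosome's outermost ones, a choice added after the data were seen, 14.5% (10.1 to 19.8) were called, below the 21.9% (21.4 to 22.3) of the others. The call followed length. It was made in 8 of 89 tall regions below 1000 bases (8.99%) and in 54 of 120 at 4000 to 8000 bases (45%, 35.9 to 54.3), against 5.24% and 53.7% of the others. H3.3 was called in 402 of the 405 (99.3%), against 62.0% of all regions, and nothing is read from this, as the H3.3 height chose them. When H3.3 was divided by H3.1/H3.2, the whole counting interval was above 1 in 393 tall regions and below 1 in 6, and in 6 it included 1, while among all regions 45.2% were above and 33.8% below. Since the fold contains the height that chose the regions, nothing is read from it.

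**Figure D3:**
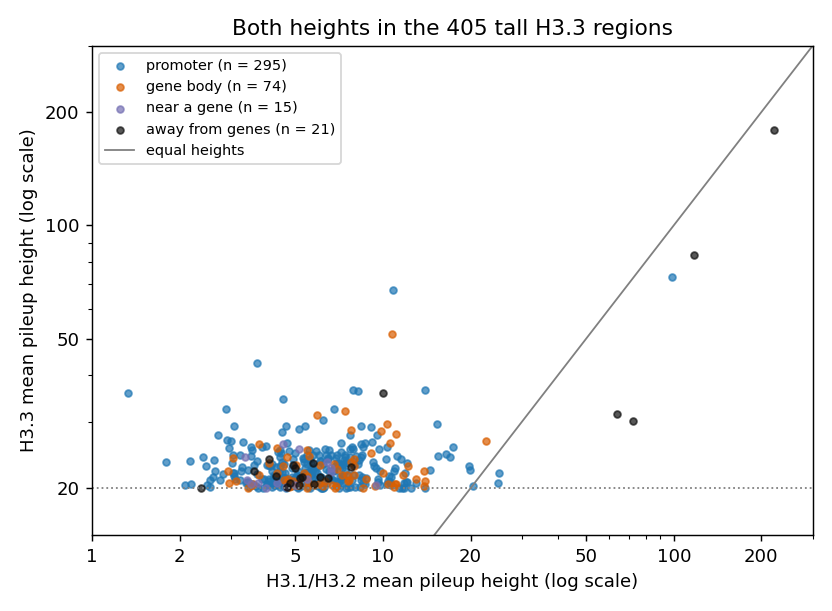
H3.3 mean height (y axis) against H3.1/H3.2 mean height (x axis), both on log scales, for each of the 405 tall regions, coloured by place; the grey line marks equal heights and the dotted line the limit of 20. Most regions lie at H3.1/H3.2 heights between 2.96 and 13.9, and 5 regions with H3.1/H3.2 heights of 63.8 to 221 stand apart at the right.

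The regions with the highest H3.1/H3.2 included the 3 tallest in H3.3. The tallest, on chromosome 3 (93470200 to 93470999, hg38), had an H3.3 height of 179 and an H3.1/H3.2 height of 221, and the next, on chromosome 1 (125183600 to 125184399), had 83.3 and 117. A further region, on chromosome 21 (8219800 to 8220199), lay upstream of LOC105379506 on the short arm and had 73.1 and 98.9. A pair on chromosome 5, at 49599400 to 49602999 and 49656400 to 49661999, had H3.3 heights of 30.2 and 31.5 and H3.1/H3.2 heights of 72.5 and 63.8. These 5 were the highest in H3.1/H3.2, and 3 of them were not called in H3.3. Reads of repeated sequence can pile up on few assembled copies, and whether they did here was not tested, as the input was not analysed here. A height of 20 in both libraries was reached by 9 tall regions in all. The other 4 lay at UCKL1 and ZNF512B (H3.1/H3.2 height 25.01), at TIMM13 and LMNB2 (24.9), in SCAP, a sterol sensor that escorts SREBP (22.7), and at CDC34, a ubiquitin-conjugating enzyme (20.3). Of the 5 tallest regions called in both ChIPs, 2 were those of chromosomes 3 and 21, and the others lay at LAMA5, at RECQL4 and away from genes on chromosome 20.

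The other tallest regions lay mostly at genes. The promoter of PGK1, a glycolytic kinase on chromosome X (78103200 to 78104799), had an H3.3 height of 67.3 (95% counting interval 61.5 to 73.7) and an H3.1/H3.2 height of 10.8 (8.51 to 13.5). Its highest single position reached 217 in H3.3 and 27 in H3.1/H3.2. A stretch in the body of LAMA5, the laminin alpha-5 chain of basement membranes, downstream of the proteasome ubiquitin receptor gene ADRM1 (chromosome 20, 62318400 to 62321199), had 51.4 and 10.7, with no CpG island. Another region nearer the start of LAMA5 (62360600 to 62367199) had 36.6 and 7.86. The region at ACTG1, cytoskeletal gamma-actin, and FSCN2, an actin-bundling protein, had 42.9 (37.9 to 48.4) and 3.68 (2.33 to 5.53).

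The region on chromosome 8 assigned to RECQL4, a DNA helicase gene, LRRC14, LRRC24 and C8orf82 had 36.5 and 13.97. A region of chromosome 20 away from genes (62621200 to 62627199) had 35.8 and 10.01, and another on chromosome 8 (28400400 to 28401799) had 23.95 and 4.07. The region at MRGBP, a subunit of the NuA4 acetyltransferase, and LOC105372716 had 36.3 and 8.18, and that assigned to STK11, the LKB1 kinase, C19orf26, ATP5D, a subunit of ATP synthase, and MIDN had 34.6 and 4.53. RNPS1, a splicing factor, had 32.5 and 2.90. GPX4, which detoxifies lipid peroxides, had 32.4 and 6.80 in a region also assigned to the RNA polymerase II subunit POLR2E. H3.1/H3.2 was thus between 2.90 and 13.97 at these regions. It was lower at LOC105372463 (1.79), at DIS3L, an RNA exosome nuclease, with LOC105370868 (2.09), at CDC7, a kinase needed to start DNA replication, and LOC105378856 (2.18), and at PHF10 and TCTE3 (2.18), where H3.3 was 23.5, 20.4, 23.6 and 20.5.

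The median length was 3599 bases for tall regions in gene bodies and 1999 at promoters, and 34 of the 74 former held no CpG island. After LAMA5 the tallest were in LOC105372717 downstream of DIDO1 (32.03 in H3.3 and 7.39 in H3.1/H3.2), in the body of ISPD (31.3 and 5.92), whose product extends the sugar chain of dystroglycan, in the secretory-pathway kinase gene FAM20C (29.6 and 10.4) and in the splicing factor gene HNRNPH1 (28.6 and 7.78). FAM20C held 2 more tall regions in its body, at 27.9 and 24.8. The tallest near a gene were downstream of LOC105371948 (26.3), near FAM207A and LINC00163 (25.5), near PTGES, the inducible prostaglandin E synthase (24.3), near LOC105372712 (23.5) and near PDGFA, a platelet-derived growth factor (22.6), with H3.1/H3.2 heights of 3.35 to 6.63. H3.1/H3.2 at tall regions had medians of 5.71 (5.42 to 6.11) at promoters, 6.26 (5.49 to 7.54) in gene bodies, 4.64 (3.71 to 6.44) near genes and 5.27 (4.79 to 7.75) away from genes, and these intervals overlapped. Away from genes the others stood at 3.05 (3.00 to 3.09).

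The tall regions were unevenly spread over the chromosomes. Chromosome 19 held 51 (12.6% of the tall and 6.72% of the other H3.3-called regions), chromosome 17 held 38 (9.38% and 7.44%), chromosomes 9 and 20 held 35 each (8.64%, against 4.35% and 2.94%) and chromosome 11 held 31. Chromosome 1, with 10.5% of the others, held 20 (4.94%), chromosome 16 held 6, chromosomes 2 and X held 2 each, chromosome 22 held 1 and chromosome 18 held none. Shares were also taken of the tall and other H3.3-called regions together, which counts 3 tall regions not called in H3.3. The tall ones made up 2.96% (2.07 to 4.09) on chromosome 20, 2.02% (1.41 to 2.79) on chromosome 9 and 1.91% (1.42 to 2.497) on chromosome 19. The share was 0.0894% (0.0108 to 0.323) on chromosome 2 and 0.0683% (0.00173 to 0.380) on chromosome 22, and on chromosome 18 the 0 of 395 allows up to 0.930%.

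**Figure D4:**
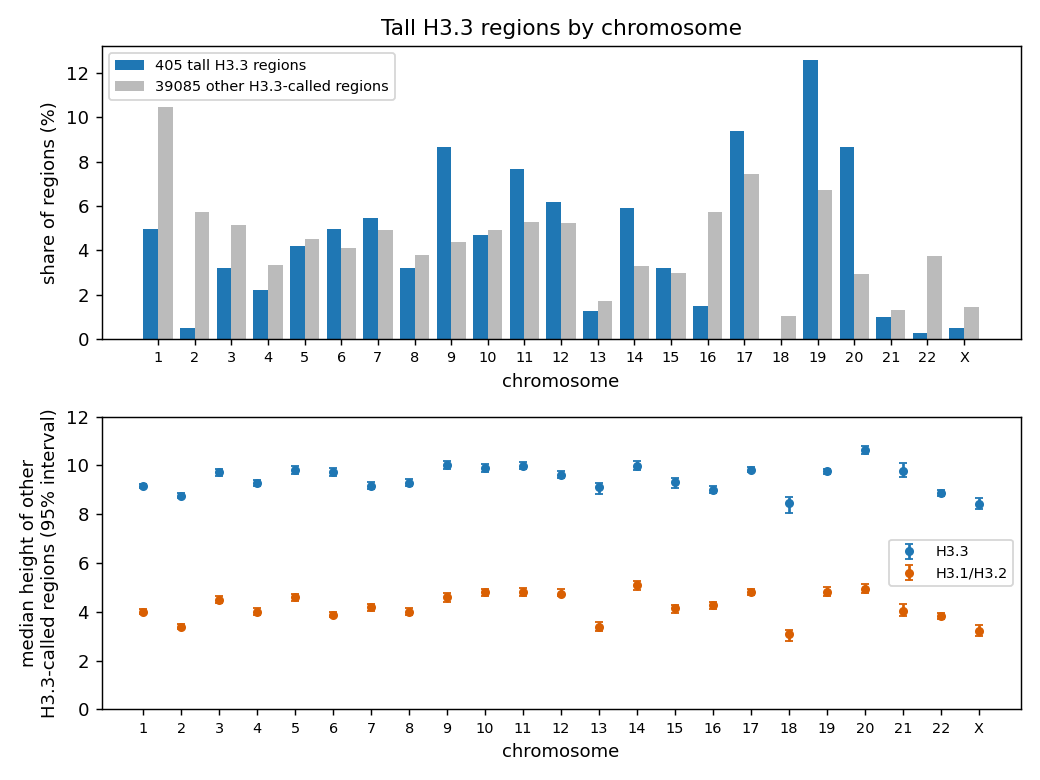
Share of the 405 tall and of the 39085 other H3.3-called regions on each chromosome (top, percent) and the median height of the other H3.3-called regions in both libraries (bottom, with 95% intervals). Chromosomes 19, 20 and 9 hold clearly more of the tall than of the other regions and chromosomes 1, 2, 16 and 22 clearly less, and both libraries have low ordinary heights on chromosomes 18, X and 2.

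Ordinary heights moved with this spread. The median H3.3 height of the other H3.3-called regions was 10.6 on chromosome 20 and 10 on chromosome 9, but 8.75 on chromosome 2, 8.87 on 22, 8.44 on 18 and 8.42 on X. H3.1/H3.2 in the same regions had medians of 4.94 on chromosome 20 and 4.62 on 9, and of 3.38, 3.83, 3.08 and 3.23 on those 4. Chromosome 19, with the most tall regions, stood lower in H3.3, at 9.75, than chromosomes 10, 11 and 14, and at 4.83 in H3.1/H3.2. Across 23 chromosomes the share of tall regions had a Spearman correlation of 0.85 (Pearson 0.85) with the H3.3 median, which stems from the same heights, and of 0.79 (0.74) with the H3.1/H3.2 median, which stems from the other library. More copies of a chromosome and more H3.3 per copy cannot be told apart in a pileup without the input, which was not analysed here. When the 405 regions with the largest H3.3 height relative to the median of their own chromosome were taken instead, 339 were the same regions. Chromosome 22 then had 9, chromosome 2 had 7, chromosome 18 had 5, chromosome 20 had 21, chromosome 9 had 17 and chromosome 19 had 44.

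Tall regions gathered towards chromosome ends. Of the 405, 184 (45.4%, 40.5 to 50.4) lay within 5 Mb of the first or last region of the table on their chromosome, against 19.9% (19.5 to 20.3) of the other H3.3-called regions. The first region stands for the end of the assembled sequence, and on chromosomes 13, 14 and 15 it lay at position 18211800 or beyond. Within 1 Mb of an outermost region, tall regions made up 3.31% (2.64 to 4.09) of the tall and other H3.3-called regions together. Their share was 2.84% (2.13 to 3.71) at 1 to 2 Mb, 1.38% (1.02 to 1.81) at 2 to 5 Mb and 0.537% (0.341 to 0.805) at 5 to 10 Mb, and between 0.609% and 0.790% further in. On chromosome 19 the count was 41 of 51, on chromosome 9 it was 23 of 35, on chromosome 20 it was 21 of 35, and on chromosome 10 it was 1 of 19.

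**Figure D5:**
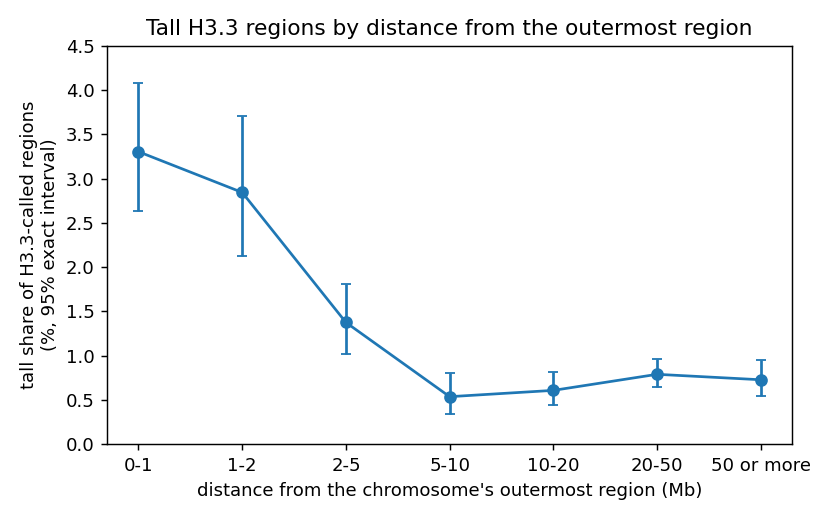
Tall regions as a percentage of the tall and other H3.3-called regions below 8000 bases together, by distance in Mb from the first or last region of the table on the same chromosome. Bars are 95% exact binomial intervals. The share is 3.31% in the outermost 1 Mb and stays under 0.8% from 5 Mb inwards.

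The CpG island share of other H3.3-called regions was also higher there, at 47.3% in the outermost 1 Mb against 26.4% at 5 to 10 Mb. Within CpG island promoters alone, the tall share was 5.35% (4.42 to 6.42) of 2036 regions inside the outer 5 Mb and 2.09% (1.78 to 2.43) of 7753 elsewhere, and within regions without an island 0.824% (0.590 to 1.12) and 0.189% (0.136 to 0.255). H3.1/H3.2 at tall CpG island promoters had a median of 6.54 (6.04 to 7.55) in the outer 5 Mb and 5.40 (5.11 to 5.71) elsewhere, while the other CpG island promoters had 4.99 (4.8 to 5.16) and 5.10 (5.01 to 5.17). At CpG island promoters the intervals of tall and other regions were thus apart in the outer 5 Mb and overlapped elsewhere. Without an island they were apart in both zones, with medians of 5.75 (4.79 to 6.63) against 4.17 (4.08 to 4.24) in the outer 5 Mb and 5.48 (5.09 to 6.05) against 4 (3.96 to 4.03) elsewhere. Over all regions outside the outer 5 Mb the difference of medians was 1.19 (0.935 to 1.45). The difference between both zones was not tested.

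Some neighbouring tall regions formed runs. With gaps of up to 100000 bases joined, the 405 regions fell into 304 runs, of which 46 held at least 2 and together 147 tall regions (36.3%). No such share is given for other H3.3-called regions, so nothing is read from how many formed runs. The largest spanned 296.4 kb on chromosome 19 (989200 to 1285599) with 14 tall regions, H3.3 heights of 20.026 to 34.6 and H3.1/H3.2 heights of 3.31 to 15.4, from WDR18 and GRIN3B over GPX4, SBNO2, STK11 and ATP5D to CIRBP, a cold-inducible RNA-binding protein, and EFNA2. A second run on chromosome 19 (449600 to 613599) held 8, from SHC2 over CDC34 and BSG, the lactate transporter partner basigin, to HCN2 and POLRMT, and another (2269400 to 2599999) held 7, from OAZ1 over TIMM13 and LMNB2, a nuclear lamin, to GNG7. A run of 7 on chromosome 11 (640200 to 849599) reached from DRD4 over DEAF1 and CD151, a tetraspanin, to TSPAN4. Of its 7 tall regions 6 were also called in the H3.1/H3.2 ChIP, against 24.0% of all tall and 22.5% of other H3.3-called regions. Its 25 other regions had a median H3.1/H3.2 height of 8.36, close to the 8.42 of its tall ones, so the height was shared by the whole stretch. On chromosome 20 a run of 6 (62791200 to 62891799) covered MRGBP, OGFR, COL9A3 and DIDO1, with 1 H3.1/H3.2 call. There the median H3.1/H3.2 height was 7.10 in the tall and 7.03 in the 10 other regions.

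H3.1/H3.2 was also compared between the tall regions and their neighbours. For 366 tall regions a neighbouring region of the table lay within 20000 bases, 655 neighbours in all, at a median gap of 401 bases. Their median H3.3 height was 13.1 (12.6 to 13.9) and their median H3.1/H3.2 height 5.98 (5.47 to 6.18), and the neighbour's H3.1/H3.2 height differed from that of its tall region by a median of -0.20 (-0.49 to 0.03). By call, 403 neighbours were H3.3 only (61.5%), 205 called in both (31.3%) and 47 H3.1/H3.2 only (7.18%). Over all regions of the table these shares were 45.7%, 16.3% and 38.0%. In the H3.3-only neighbours H3.1/H3.2 was lower than in the tall region, by a median of -0.90 (-1.21 to -0.63), and in those called in both it was higher, by 2.40 (1.88 to 2.74). In the H3.1/H3.2-only neighbours it was higher by 3.22 (1.29 to 4.13). A call in H3.1/H3.2 itself selects for H3.1/H3.2 height, and the lack of a call selects against it. The directions by call therefore follow largely from the sorting, and nothing is read from them. Of the 655 neighbours 60 were themselves tall.

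Gene lists gave few tall promoters. Of 16343 genes with a region below 8000 bases in their promoter window, 429 (2.62%) had a tall one, and the same window was used for each list. Among 28 cytoskeleton and mesenchymal genes with a promoter region 3 did (10.7%, 2.27 to 28.2), namely ACTG1, TUBA1B, an alpha-tubulin (29.2 in H3.3 and 4.64 in H3.1/H3.2), and S100A6, a calcium-binding protein (22.8 and 3.27). Another region nearer the start stood at 10.6 for TUBA1B and 15.6 for S100A6. Among 18 AP-1 and immediate early genes 2 did (11.1%, 1.38 to 34.7), the ERK phosphatase DUSP6 (20.8 and 7.04) and JUNB, an AP-1 subunit (20.5 and 8.68). The GTPase HRAS (22.3 and 19.95) was 1 of 20 MAP kinase pathway genes, and the region nearest its start stood at 8.3. DSP, the desmosome protein desmoplakin (23.1 and 7.16), was 1 of 17 epithelial genes, PGK1 1 of 18 glycolysis and hypoxia genes, and RPL5 (20.5 and 10.7) 1 of 27 ribosomal protein genes.

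None was tall among 12 EMT transcription factors, 15 TGF-beta pathway genes, 15 heat shock and chaperone genes, 12 H3 variant and H3 chaperone genes, 4 blood and immune cell genes or 3 neuronal genes. Each of the 12 intervals included the background of 2.62%, so no list stood apart from all genes at these counts. The median H3.3 height of the region nearest the start ran from 8.81 for the MAP kinase list to 12.97 for the blood and immune list, against 9.91 over all genes. Outside promoter windows, VEGFA, the vascular endothelial growth factor, carried a tall region in its body (21.5 and 5.48) while the region nearest its start stood at 8.16. KRT7, a simple-epithelium keratin, carried one in its body (20.9 and 6.31), against 7.67 nearest its start. RPS9, a ribosomal protein gene, had one downstream of it (21.4 and 6.13), against 9.68.

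Groups of symbols with a shared beginning were chosen after their values were seen, and they can include antisense and host genes such as ZNF30-AS1 and MIR137HG. Symbols beginning with ZNF had 10 tall promoters of 379 (2.64%, 1.27 to 4.80), those with MIR 22 of 733 (3.00%, 1.89 to 4.51), those of transfer RNA genes 9 of 203 (4.43%, 2.05 to 8.25), those with SNOR 3 of 216 (1.39%, 0.287 to 4.01) and those with LINC 5 of 171 (2.92%, 0.956 to 6.69), all with the background of 2.62% inside the interval. Such genes often share a region. The tall transfer RNA promoters rested on 4 regions, 3 on chromosome 1 and 1 on chromosome 17. Of the histone genes 3 of 47 were tall (6.38%, 1.34 to 17.5), all through 1 region of chromosome 6 (26020600 to 26021399) assigned to HIST1H1A, HIST1H3A, HIST1H4A and HIST1H4B, at 24.2 in H3.3 and 4.44 in H3.1/H3.2.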

How the data were processed

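ChIP and input DNA libraries were read as single ends of 75 nt, per the labels' protocols. BWA, SICER and hg38 are named without versions, per the submitters' processing notes. The authors deposited 1 table of 67969 regions, and 4 on chromosome Y were not used. Per the file headers it gives the pileup signal of both ChIPs, as mean and highest height of a region, and a log2 ratio, which was not used here. No label or header states a scaling between libraries or their total depth. Heights are uncorrected for mappability and copy number, as the input was not analysed here.

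Members and gene lists were chosen with earlier results of these data known. Regions and genes were named by rank of either height, overall and within each place, by closeness to the limit, by gene list and by run, with exceptions stated, and 1 region that this rule names is not reported here, though it remains in the counts and medians. Starts and ends are as deposited, in steps of 200 bases. Tags were estimated as height times length over 224, the factor linking the table's heights and tag numbers. Reads had no molecular identifiers, so intervals on tags cover counting error only. Shares carry exact Clopper-Pearson, folds exact conditional, heights Poisson and medians order-statistic intervals at 95%, and differences combine the widths of both intervals in quadrature. No test between antibodies was made, as each had 1 library. Promoter windows for gene lists were those that gave the deposited promoter count in 99.997% of regions. Distances to starts matched a RefSeq gene end within 1000 bases in 92.1% of 90533 pairs, and 636 of 728 symbols at tall regions were in RefSeq. Intervals, runs and motif searches were tested on simulated data. Other height limits, lengths, sets and chromosomes were tried as alternatives. Python 3.11.15, pandas 2.3.3, numpy 2.4.6, scipy 1.17.1 and matplotlib 3.10.9 were used.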

Additional observations from a re-analysis of the deposited data

How the results depend on the processing

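The promoter, CpG island and H3.1/H3.2 median differences between tall and other H3.3-called regions kept their direction under the alternatives that gave them, but within lengths of 4000 to 8000 bases the H3.1/H3.2 median was 6.41 in tall and 6.63 in other regions. The share called in H3.1/H3.2 moved above or below that of the others with the choice of regions. At an H3.3 height of at least 15 there were 2602 regions, with 66.2% at promoters, 67.3% with a CpG island, 18.7% called in H3.1/H3.2, a median H3.1/H3.2 height of 5.14 and 33.9% in the outer 5 Mb, and the differences were 24.4 points, 38.5 points and 0.897. At 25 there were 68 regions, with 32.4% called in H3.1/H3.2, a median of 6.99, 61.8% in the outer 5 Mb and a median difference of 2.69. With no limit on length 36.9% were called, the median was 6.31 and its difference 1.85. The outer 5 Mb held 51.3% of regions of at least 1000 bases, 40.4% without chromosome 19 and 32.2% when 1 region per run was kept, of which 18.1% were called in H3.1/H3.2. The difference of medians was 0.817 among regions with a CpG island. With peak heights the median was 13 and its difference 4. Among alternatives added after the data were seen, leaving out the outer 5 Mb kept 221 regions, with 79.6% at promoters (a difference of 36.9 points), 14.5% called in H3.1/H3.2 and a median of 5.45. The cause of these shifts was not tested, beyond the choice of regions itself. The other shares, medians and differences stayed within the interval of the reported value, and the other alternatives that changed the number of regions left 304 to 540. No paired analysis was possible because each antibody had 1 library. Depth limits the shortest regions most, and 5% of the tall regions held 11 or fewer H3.1/H3.2 tags.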
